A study of Mus musculus with 12 samples.

Results

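The gene families described here are matrix metalloproteinases (MMPs), their tissue inhibitors (TIMPs) and aggrecanases of the ADAMTS family, in mouse cells that the labels call primary cardiac fibroblasts. The members are 10 gene symbols chosen by name, Mmp2, Mmp3, Mmp14, Mmp19, Timp1, Timp2, Timp3, Adamts1, Adamts4 and Adamts5, and all 10 were found among the 24619 genes of the deposited count table. Messenger RNA was measured in 12 libraries, 3 for each of 4 conditioned media, that is, culture media taken from adipocytes together with what those cells released. OE_CM was medium of adipocytes infected with a lentivirus that overexpresses the human microRNA miR-548ay, and VEC_CM was medium of adipocytes infected with vector lentivirus, both without TGF-beta1. In TGF_KD_CM the fibroblasts received TGF-beta1, a profibrotic cytokine, together with medium of adipocytes whose lentivirus inhibits miR-548ay, and in TGF_VEC_CM they received TGF-beta1 and medium of vector adipocytes. In all 4 groups the fibroblasts had been grown with 10% serum, starved for 12 h and exposed to the medium for 24 h.

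Titles were used for grouping, since for OE_CM and TGF_KD_CM the treatment field of replicates 2 and 3 holds another microRNA number. Strain and age of the mice are not in the labels, nor is it said that each library is a culture of its own; p-values therefore reflect library-to-library spread alone, possibly technical. The adipocytes were not analysed here, and the microRNA in them was not checked. Library totals ran from 33379207 to 37226153 counts. Of 10 fibroblast markers, the collagen genes Col1a1 and Col1a2 and the vimentin gene Vim were abundant in every group (220.4, 841 and 1699.7 FPKM on average in VEC_CM). Col3a1, Pdgfra and Pdgfrb averaged 89.6, 96.0 and 138 CPM in OE_CM and 122, 216 and 110 CPM in TGF_KD_CM. Their means were 95.9, 168 and 57.2 CPM in TGF_VEC_CM and 97.2, 194 and 102 CPM in VEC_CM. Dcn, Lum and Thy1, also defining markers of fibroblasts, stayed below 1 CPM in all 12 libraries. These low genes go against the label, while the expressed markers do not, and Tcf21 was not analysed here. Summed leukocyte markers lay at 23.7 to 38.7 CPM in OE_CM, 32.1 to 34.6 in TGF_KD_CM, 35.9 to 39.4 in TGF_VEC_CM and 46.4 to 49.2 in VEC_CM, and 4 of the 10 were below 1 CPM in all libraries. Endothelial markers summed to at most 1.17 CPM and the 6 cardiomyocyte markers to at most 4.25 CPM in any library. The cardiac troponin T gene Tnnt2, which is not on that list, averaged 111 CPM over the 12 libraries. Mural cell markers, mostly Cspg4, summed to 896 to 902 CPM in OE_CM, 636 to 649 in TGF_KD_CM, 819.8 to 844 in TGF_VEC_CM and 598 to 617 in VEC_CM, and adipocyte markers, of which 5 of 6 were below 1 CPM, to 13.4 to 15.5, 16.7 to 19.7, 11.5 to 12.8 and 8.44 to 10.1 CPM in the same groups. The part of these marker levels in the results was not tested.

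MMPs are zinc-dependent proteases that cut collagens and other proteins of the extracellular matrix, and most are secreted as inactive precursors. TIMPs bind the active site of MMPs and block it, and TIMP-3 also inhibits aggrecanases. MMP-14 is anchored in the cell membrane, and together with TIMP-2 it activates the precursor of MMP-2 at the cell surface. ADAMTS1, ADAMTS4 and ADAMTS5 cut large proteoglycans such as versican and aggrecan. In the heart these genes are known for matrix turnover after injury and during fibrosis.

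The windows from 250 bases before to 50 bases after the annotated start are shown for Timp1, Timp2 and Mmp14, since these 3 members carried nearly all of the families' messenger RNA and moved in different directions (RefSeq, GRCm38.p6, each 5′ to 3′ on the gene's own strand). The Timp1 window is chrX:20869916-20870215 on the plus strand, the Timp2 window chr11:118355362-118355661 on the minus strand and the Mmp14 window chr14:54431348-54431647 on the plus strand. Capitals mark an element of the AP-1 type.
Timp1: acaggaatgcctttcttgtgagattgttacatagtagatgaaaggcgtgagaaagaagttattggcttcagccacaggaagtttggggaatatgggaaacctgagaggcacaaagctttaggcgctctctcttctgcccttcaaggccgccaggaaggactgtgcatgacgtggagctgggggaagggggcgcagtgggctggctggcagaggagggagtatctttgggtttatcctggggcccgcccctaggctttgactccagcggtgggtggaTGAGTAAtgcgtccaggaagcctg
Timp2: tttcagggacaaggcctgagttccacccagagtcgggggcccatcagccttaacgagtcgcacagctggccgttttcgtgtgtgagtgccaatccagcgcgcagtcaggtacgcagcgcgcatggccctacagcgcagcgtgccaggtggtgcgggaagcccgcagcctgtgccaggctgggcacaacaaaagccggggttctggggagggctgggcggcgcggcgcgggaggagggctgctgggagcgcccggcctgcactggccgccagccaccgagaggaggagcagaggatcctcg
Mmp14: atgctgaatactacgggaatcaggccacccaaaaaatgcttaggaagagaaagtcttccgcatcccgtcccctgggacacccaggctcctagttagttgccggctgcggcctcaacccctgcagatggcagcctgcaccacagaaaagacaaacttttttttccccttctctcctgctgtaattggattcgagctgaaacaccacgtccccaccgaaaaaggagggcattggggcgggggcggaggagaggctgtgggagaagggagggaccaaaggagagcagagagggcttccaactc
AP-1 is the transcription factor formed by FOS and JUN proteins. Its element TGACTCA, searched on both strands (TGAGTCA on the other), was in 5.2% of 32851 RefSeq windows of this length, and among the 6 members with a window it was found in that of Mmp3. The variant TGAGTAA, also searched on both strands, was in 2.68% of all windows and in that of Timp1, where it begins 27 bases after the start; no 2 elements overlapped in these windows. The CRE element TGACGTCA (1.79% of all windows) and the palindromic SMAD element GTCTAGAC (0.213%) were in none of the 6, which were those of Mmp3, Mmp14, Timp1, Timp2, Timp3 and Adamts1. G and C made up 68.7% of the Timp2 window, 56% of the Mmp14 window and 55% of the Timp1 window, beside a median of 52.7% over all windows. These matches are a description of the letters only.

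The members differed in level by orders of magnitude. On the FPKM scale, which corrects for gene length and so allows levels of different genes to be compared, Timp1 averaged 169 ± 5.48 in OE_CM and 76 ± 0.971 in VEC_CM, and Mmp14 averaged 122 ± 1.35 in OE_CM and 95.7 ± 3.21 in VEC_CM (SD, n = 3 for each mean here and below). Timp2 averaged 40.3 ± 1.36 FPKM in OE_CM and 87.8 ± 0.643 FPKM in VEC_CM. The other 7 members were at most 5.29 FPKM in any library. Mmp14 supplied 97.9 to 98.2% of the summed FPKM of the 4 MMP members in OE_CM and 94.4 to 94.9% in VEC_CM. The gelatinase gene Mmp2 stayed under 1 FPKM and the stromelysin gene Mmp3 was at 0 to 3 reads per library.

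**Figure D1:**
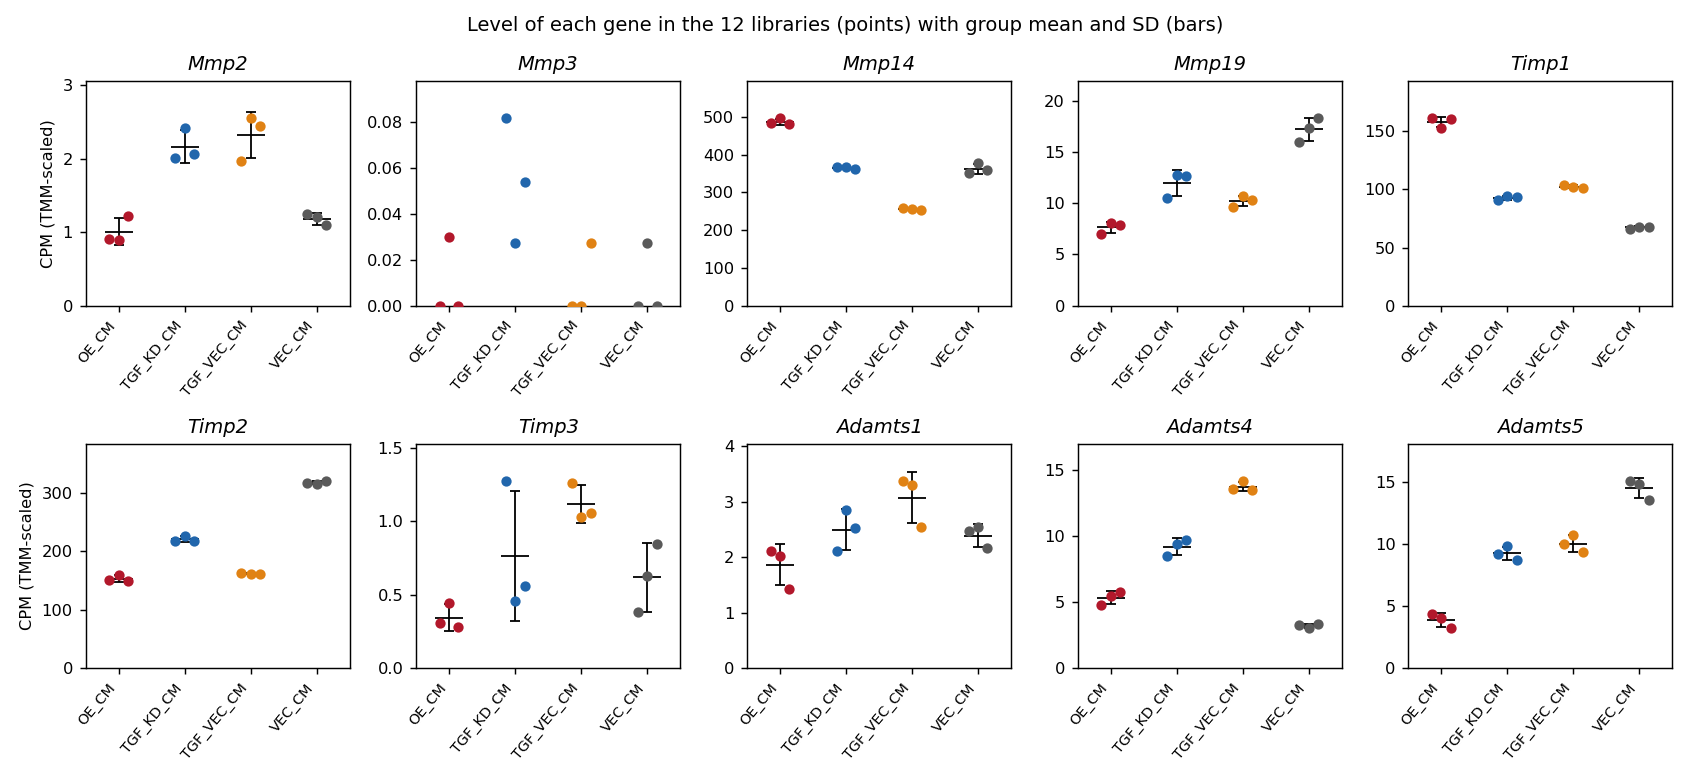
Level of the 10 members in CPM (library-scaled counts with TMM factors; linear axes that start at 0 and differ between panels) in the libraries of OE_CM, TGF_KD_CM, TGF_VEC_CM and VEC_CM. Points are libraries, and black bars the group mean and SD (not drawn for Mmp3, which has 0 to 3 reads per library). Timp1 is highest in OE_CM and lowest in VEC_CM, and Timp2 is highest in VEC_CM; Adamts4 is highest in TGF_VEC_CM, Adamts5 in VEC_CM.

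Counts were tested with edgeR's quasi-likelihood test over all 14400 genes that passed a filter on low counts, with Benjamini-Hochberg adjustment over them and a threshold of 0.05. Of the 10 members, 9 passed the filter, and Mmp3 did not. In OE_CM against VEC_CM, the comparison on microRNA overexpression in the adipocytes, Mmp14, Timp1 and Adamts4 rose, Mmp19, Timp2 and Adamts5 fell, and Mmp2, Timp3 and Adamts1 did not pass. Of all genes tested 54% passed in either direction in this comparison, 28.4% higher and 25.7% lower. With upper-quartile factors in place of TMM the split of all called genes moved to 2798 higher and 5059 lower, against 4083 higher and 3695 lower, and the 9 members kept their directions. A change of at least 2-fold that also passed was found in 4 members, Timp1, Timp2, Mmp19 and Adamts5, and in 7.35% of all genes. The median log2 fold change of the 9 members was -0.36, beside -0.0081 over all genes, and the median absolute change 0.83 beside 0.23. The members were chosen with results of these data known, so their counts describe them and do not set them apart.

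In TGF_KD_CM against TGF_VEC_CM, the comparison on microRNA inhibition in the presence of TGF-beta1, Mmp14, Mmp19 and Timp2 rose, Timp1 and Adamts4 fell, and Mmp2, Timp3, Adamts1 and Adamts5 did not pass; 43.3% of all genes passed, 23% higher and 20.2% lower. None of the 9 reached a called 2-fold change there, as 4.03% of all genes did, and the median absolute log2 change of the 9 was 0.30, beside 0.17 over all genes. In TGF_VEC_CM against VEC_CM, Mmp2, Timp1, Timp3 and Adamts4 rose, Mmp14, Mmp19, Timp2 and Adamts5 fell, and Adamts1 did not pass, where 58.3% of all genes passed, 28.9% higher and 29.4% lower. Here TGF-beta1 cannot be told apart from the part of the study, since the labels place the groups with and without it in different parts. This comparison shares VEC_CM with the overexpression comparison and TGF_VEC_CM with the inhibition comparison, so its values are given beside theirs and not correlated with them. All libraries are bulk RNA, in which fewer cells of a type and less RNA per cell cannot be told apart.

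**Figure D2:**
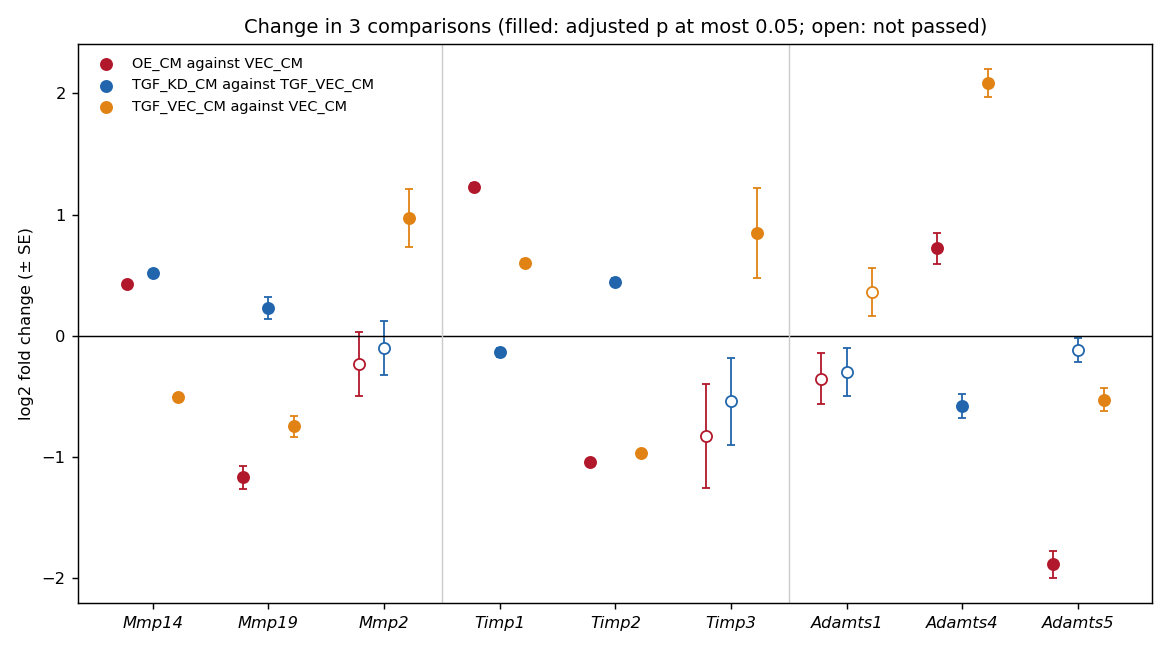
The log2 fold change of the 9 tested members in the 3 comparisons, with SE as bars, grouped as MMPs, TIMPs and ADAMTS genes; filled points passed at an adjusted p of 0.05 and open points did not. Timp1 and Timp2 lie on opposite sides of 0 in each comparison, and Mmp14 is above 0 in both comparisons of adipocyte media and below 0 for TGF_VEC_CM against VEC_CM.

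Gene coordinates below are those of RefSeq on GRCm38.p6. Mmp14, the membrane-type MMP (chromosome 14, 54431598 to 54442456, plus strand), was at 483, 496 and 481 CPM in OE_CM, 368, 366 and 361 CPM in TGF_KD_CM, 259, 255 and 253 CPM in TGF_VEC_CM and 352, 377 and 359 CPM in VEC_CM. OE_CM was highest and TGF_VEC_CM lowest, and TGF_KD_CM and VEC_CM overlapped. It rose 1.34-fold in OE_CM (log2 0.42 ± 0.025 SE; adjusted p = 1.86e-23) and 1.43-fold in TGF_KD_CM against TGF_VEC_CM (log2 0.51 ± 0.026; adjusted p = 9.22e-27). Both media changed Mmp14 upwards, and the difference between the 2 effects was small (log2 0.088 ± 0.036; adjusted p = 0.0331). That difference no longer passed when OE_CM replicate 1 or 3, VEC_CM replicate 2 or 3, TGF_KD_CM replicate 1 or 2, or TGF_VEC_CM replicate 2 or 3 was left out (adjusted p = 0.0672 to 0.179). With TGF-beta1 and vector medium it fell by 0.50 ± 0.026 on the log2 scale against VEC_CM (adjusted p = 1.21e-26).

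Mmp19, a secreted MMP that cuts basement membrane proteins (chromosome 10, 128790910 to 128800827, plus strand), went the other way from Mmp14 in OE_CM. Its values were 7.0, 8.04 and 7.89 CPM in OE_CM, 10.5, 12.7 and 12.6 CPM in TGF_KD_CM, 9.67, 10.7 and 10.3 CPM in TGF_VEC_CM and 16, 17.3 and 18.3 CPM in VEC_CM. VEC_CM was highest, OE_CM lowest, and the TGF-beta1 groups lay between and overlapped each other. It fell by 1.17 ± 0.092 on the log2 scale in OE_CM (adjusted p = 1e-17) and by 0.75 ± 0.088 in TGF_VEC_CM against VEC_CM (adjusted p = 3.91e-11). The rise in TGF_KD_CM was 1.17-fold (adjusted p = 0.0387), and this call was lost with DESeq2 (adjusted p = 0.067), with upper-quartile factors (adjusted p = 0.0668), with limma on log2(FPKM + 1) (adjusted p = 0.0805) and when TGF_KD_CM replicate 2 or 3 or any 1 of the TGF_VEC_CM libraries was left out (adjusted p = 0.0543 to 0.199). Tmem198b, annotated on the opposite strand, shares 789 of the 3533 exon bases of Mmp19, and reads of the pair cannot be separated without strand. Tmem198b was at 12.8 CPM in OE_CM against 16 CPM in VEC_CM (adjusted p = 0.000264), and at 20.9 CPM in TGF_VEC_CM, higher than in VEC_CM (adjusted p = 7.61e-06). Summed leukocyte markers were also lower in OE_CM (23.7 to 38.7 CPM) than in VEC_CM (46.4 to 49.2 CPM), and their part in the fall of Mmp19 was not tested.

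Mmp2, the gelatinase that MMP-14 activates (chromosome 8, 92827290 to 92853421, plus strand), was low in every group. It was at 0.903, 0.897 and 1.22 CPM in OE_CM, 2.01, 2.41 and 2.07 CPM in TGF_KD_CM, 1.97, 2.54 and 2.44 CPM in TGF_VEC_CM and 1.25, 1.2 and 1.09 CPM in VEC_CM, which stands for 30 to 94 reads per library. Both TGF-beta1 groups lay above both groups without it, and within each of these pairs the groups overlapped. Mmp2 rose 1.96-fold in TGF_VEC_CM against VEC_CM (log2 0.97 ± 0.24; adjusted p = 0.000404). The log2 fold change was -0.24 ± 0.26 in OE_CM (adjusted p = 0.471) and -0.10 ± 0.23 in TGF_KD_CM (adjusted p = 0.753). Mmp3, the gene of stromelysin 1 (chromosome 9, 7445822 to 7455975, plus strand), had 0, 1 and 0 reads in OE_CM, 3, 1 and 2 in TGF_KD_CM, 0, 0 and 1 in TGF_VEC_CM and 0, 1 and 0 in VEC_CM. No library exceeded 3 reads, the number taken as the floor, and no fold is given.

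The inhibitor genes Timp1 and Timp2 moved in opposite directions in all 3 comparisons. Timp1 (chromosome X, 20870166 to 20874737, plus strand) was at 161, 153 and 160.2 CPM in OE_CM, 90.9, 94.2 and 93.4 CPM in TGF_KD_CM, 104, 102 and 101 CPM in TGF_VEC_CM and 66.2, 67.9 and 68.1 CPM in VEC_CM. The 4 groups did not overlap and ran from OE_CM over TGF_VEC_CM and TGF_KD_CM down to VEC_CM. Timp1 rose 2.34-fold in OE_CM (log2 1.23 ± 0.034 SE; adjusted p = 4.68e-41) and 1.52-fold in TGF_VEC_CM against VEC_CM (log2 0.60 ± 0.035; adjusted p = 6.09e-24). In TGF_KD_CM it fell by 0.14 ± 0.034 on the log2 scale (adjusted p = 0.000514).

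Timp2 (chromosome 11, 118301061 to 118355411, minus strand) was at 150.2, 160.4 and 150.0 CPM in OE_CM, 218, 226 and 217 CPM in TGF_KD_CM, 163, 161 and 162 CPM in TGF_VEC_CM and 316, 315 and 319.6 CPM in VEC_CM. Here too no groups overlapped, though TGF_VEC_CM and OE_CM came close, and VEC_CM was highest. Timp2 fell by 1.05 ± 0.028 on the log2 scale in OE_CM (adjusted p = 1e-41) and by 0.97 ± 0.028 in TGF_VEC_CM against VEC_CM (adjusted p = 6.72e-40). In TGF_KD_CM it rose 1.36-fold (log2 0.45 ± 0.028; adjusted p = 1.17e-21). Timp1 lies inside the synapsin gene Syn1 and shares no annotated exon base with it, and Timp2 holds the gene Cep295nl, likewise with no shared exon base.

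Within a library, the ratio of Timp1 to Timp2 FPKM was 4.2 ± 0.272 in OE_CM, 1.71 ± 0.0332 in TGF_KD_CM, 2.57 ± 0.0189 in TGF_VEC_CM and 0.865 ± 0.0110 in VEC_CM. Timp1 thus made up 79.5 to 81.3% of the summed TIMP level in OE_CM and 46 to 46.6% in VEC_CM. The sum itself was 167 ± 2.01 FPKM in TGF_KD_CM, 165 ± 1.66 FPKM in TGF_VEC_CM and 164 ± 1.36 FPKM in VEC_CM, and the libraries of these 3 groups overlapped. In OE_CM it was 209 ± 4.11 FPKM, above every library of the other groups. The ratio of Mmp14 to Timp2 FPKM was 3.02 ± 0.0674 in OE_CM, 1.58 ± 0.0322 in TGF_KD_CM, 1.5 ± 0.0107 in TGF_VEC_CM and 1.09 ± 0.0422 in VEC_CM. These sums and ratios describe the messenger RNA and were not tested.

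**Figure D3:**
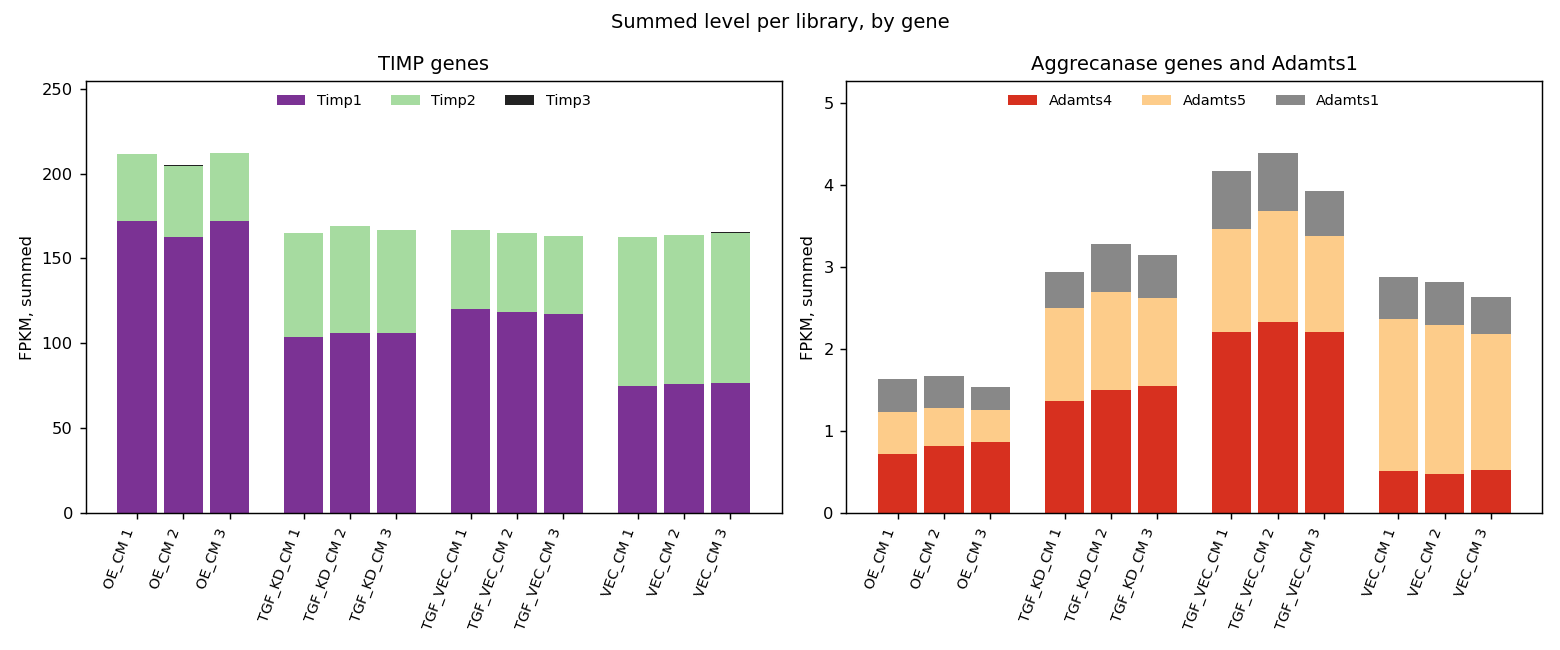
Summed FPKM per library (stacked bars, linear axes from 0) of Timp1, Timp2 and Timp3 and of Adamts4, Adamts5 and Adamts1, in OE_CM, TGF_KD_CM, TGF_VEC_CM and VEC_CM. The TIMP bars reach 205 to 212 FPKM in OE_CM and between 163 and 169 FPKM in the other groups, with a Timp1 share that differs between groups; Timp3 is too low to be read at this scale.

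Timp3, whose product stays bound to the matrix (chromosome 10, 86300412 to 86349505, plus strand), was near the limit of detection. It was at 0.310, 0.449 and 0.282 CPM in OE_CM, 1.27, 0.461 and 0.563 CPM in TGF_KD_CM, 1.26, 1.03 and 1.06 CPM in TGF_VEC_CM and 0.381, 0.628 and 0.848 CPM in VEC_CM, or 9 to 47 reads. The means ran from TGF_VEC_CM over TGF_KD_CM and VEC_CM down to OE_CM and neighbouring groups overlapped, with TGF_KD_CM replicate 1 well above the other libraries of its group. The rise in TGF_VEC_CM against VEC_CM was 1.8-fold (log2 0.85 ± 0.37; adjusted p = 0.0435), a call lost with DESeq2 (adjusted p = 0.0574), without the filter on low counts (adjusted p = 0.0612) and when any 1 of the TGF_VEC_CM libraries or VEC_CM replicate 1 or 2 was left out (adjusted p = 0.057 to 0.204). The log2 fold change was -0.83 ± 0.43 in OE_CM (adjusted p = 0.0983; -1.08 with adjusted p = 0.0409 without VEC_CM replicate 1) and -0.54 ± 0.36 in TGF_KD_CM (adjusted p = 0.23; -1.13 with adjusted p = 0.0267 without TGF_KD_CM replicate 1). Syn3, on the opposite strand, shares 1733 of 8144 annotated exon bases with Timp3. Syn3 had a mean of 0.705 CPM in OE_CM, 2.0 CPM in TGF_VEC_CM and 1.36 CPM in VEC_CM, and its reads cannot be separated from those of Timp3 without strand, so the source of the Timp3 reads is uncertain. Timp4, the family's remaining gene, had a mean of at most 0.0541 CPM in any group and was not tested.

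The aggrecanase genes Adamts4 and Adamts5 moved in opposite directions in OE_CM and in TGF_VEC_CM, each against VEC_CM. Adamts4 (chromosome 1, 171250129 to 171262267, plus strand) was at 4.8, 5.44 and 5.76 CPM in OE_CM, 8.49, 9.41 and 9.66 CPM in TGF_KD_CM, 13.5, 14.1 and 13.5 CPM in TGF_VEC_CM and 3.27, 3.06 and 3.37 CPM in VEC_CM. No groups overlapped, and both TGF-beta1 groups lay above both groups without it. Adamts4 rose 4.24-fold in TGF_VEC_CM against VEC_CM (log2 2.08 ± 0.11; adjusted p = 2.99e-25), the only one of the 9 with a called 2-fold change in that comparison (found in 9.23% of all genes), and 1.65-fold in OE_CM (log2 0.72 ± 0.13; adjusted p = 1.25e-06). In TGF_KD_CM it fell by 0.58 ± 0.10 on the log2 scale (adjusted p = 1.72e-06).

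Adamts5 (chromosome 16, 85858157 to 85901125, minus strand) had the largest change of the 9 tested members in OE_CM. It was at 4.37, 4.07 and 3.29 CPM in OE_CM, 9.22, 9.85 and 8.77 CPM in TGF_KD_CM, 10.0, 10.8 and 9.37 CPM in TGF_VEC_CM and 15.1, 14.9 and 13.6 CPM in VEC_CM. OE_CM lay below all other libraries, VEC_CM above all, and the TGF-beta1 groups overlapped in between. Adamts5 fell by 1.89 ± 0.11 on the log2 scale in OE_CM (adjusted p = 4.13e-24) and by 0.53 ± 0.10 in TGF_VEC_CM against VEC_CM (adjusted p = 2.15e-06), with a value of -0.11 ± 0.10 in TGF_KD_CM that did not pass (adjusted p = 0.37).

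Adamts1 (chromosome 16, 85793827 to 85803113, minus strand) is the neighbour of Adamts5 on the same strand, with 55043 bases between them, and passed in none of the 3 comparisons. It was at 2.12, 2.03 and 1.44 CPM in OE_CM, 2.11, 2.85 and 2.52 CPM in TGF_KD_CM, 3.37, 3.3 and 2.55 CPM in TGF_VEC_CM and 2.48, 2.54 and 2.16 CPM in VEC_CM, and the TGF_KD_CM libraries overlapped both TGF_VEC_CM and VEC_CM. The log2 fold changes were -0.36 ± 0.21 in OE_CM, -0.30 ± 0.20 in TGF_KD_CM and 0.36 ± 0.20 in TGF_VEC_CM against VEC_CM (adjusted p = 0.152, 0.228 and 0.117), and the last passed without TGF_VEC_CM replicate 3 (log2 0.49; adjusted p = 0.049). Adamts4 made up 44.1 to 56.8% of the summed FPKM of the 3 ADAMTS members in OE_CM, 45.6 to 49.2% in TGF_KD_CM, 52.9 to 56.3% in TGF_VEC_CM and 17.3 to 20.3% in VEC_CM. Their sum was 1.62 ± 0.0728 FPKM in OE_CM, 3.13 ± 0.173 in TGF_KD_CM, 4.16 ± 0.234 in TGF_VEC_CM and 2.77 ± 0.125 in VEC_CM.

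The TGF_KD_CM effect minus the OE_CM effect was tested, each against its own vector medium, with no control library in common. Only the TGF_KD_CM effect was measured with TGF-beta1, and the 2 effects come from different parts of the study. A difference between the adipocyte manipulations can therefore not be told apart from TGF-beta1 or the part of the study. The difference passed for 6 of the 9 tested members, 4 above 0 and 2 below, and for 52.5% of all genes, 26.8% above 0 and 25.6% below. It was at least 2-fold for 5 members and for 9.76% of all genes. It was -1.37 ± 0.048 for Timp1 (adjusted p = 2.71e-35), 1.49 ± 0.04 for Timp2 (adjusted p = 9.54e-42) and -1.30 ± 0.16 for Adamts4 (adjusted p = 1.78e-10) on the log2 scale. For Mmp19 it was 1.39 ± 0.13 (adjusted p = 9.17e-15) and for Adamts5 1.77 ± 0.15 (adjusted p = 1.07e-16), the sixth being the small difference of Mmp14. Timp1, Timp2, Mmp19 and Adamts4 passed in both comparisons with opposite signs, as did 18.2% of all genes. Mmp14 passed in both with the same sign, as did 10.2%. The call of Mmp19 in TGF_KD_CM against TGF_VEC_CM was lost with several alternatives, as given above. For Mmp2, Timp3 and Adamts1 the difference was 0.13 ± 0.35, 0.29 ± 0.56 and 0.056 ± 0.29 and did not pass (adjusted p = 0.773, 0.698 and 0.888).

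Other genes of matrix proteolysis are given by lists grouped by known function. In OE_CM against VEC_CM 28.4% of all genes tested passed higher and 25.7% lower, and the list counts were not tested against such shares. Of 19 further MMP genes 16 were in the table and 6 could be tested. In OE_CM none of the 6 rose and 4 fell, with a median log2 fold change of -0.43. Mmp28 fell by 0.55 ± 0.076 on the log2 scale and Mmp23 by 0.30 ± 0.068. The collagenase gene Mmp13 was at 0.251 CPM in OE_CM against 0.601 CPM in VEC_CM, and its fall (adjusted p = 0.0313) was lost with DESeq2, with no filter, without OE_CM replicate 2 or 3 or without VEC_CM replicate 1 or 2 (adjusted p = 0.0552 to 0.206). The gelatinase gene Mmp9 was at 0.250 ± 0.0815 CPM in OE_CM against 0.300 ± 0.0823 CPM in VEC_CM and did not pass (adjusted p = 0.687). Mmp12, the macrophage elastase, named here after its values were seen, ranged from 3.44 to 10.8 CPM in OE_CM and from 8.78 to 10.9 CPM in VEC_CM (adjusted p = 0.147), beside leukocyte marker sums that were lower in OE_CM.

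Of 7 further ADAMTS genes tested, 4 rose and 3 fell in OE_CM. Adamts16, Adamts12 and Adamts6 rose 2.74-fold, 2.26-fold and 2.05-fold, while the genes of the procollagen N-proteinases Adamts2 and Adamts14 fell by 0.67 ± 0.046 and 0.54 ± 0.084 on the log2 scale and Adamts10 by 0.60 ± 0.10. Adamts16 was low, at a mean of 1.005 CPM in OE_CM against 0.364 CPM in VEC_CM. Of 5 tested genes of ADAMTS-like proteins, papilin included, 2 rose and 1 fell; Adamtsl4, which encodes a protein of fibrillin microfibrils, fell by 1.07 ± 0.053, and the low genes Adamtsl3 and Adamtsl2 rose to 0.639 and 0.971 CPM in OE_CM, against 0.118 and 0.264 CPM in VEC_CM. With limma on FPKM, filtered at 1 FPKM in 3 libraries, 0 of this list rose and 2 fell. Of 7 ADAM sheddase genes 2 rose and 2 fell, with Adam8 and Adam19 1.95-fold and 1.85-fold higher, Adam9 lower by 0.21 ± 0.031 and Adam33 lower by 0.76 ± 0.23, a call lost without OE_CM replicate 1 (adjusted p = 0.067). The list of other inhibitors also holds Pcolce, the gene of an enhancer of procollagen processing and not of an inhibitor. Of its 3 tested genes only Pcolce passed, and it fell by 0.13 ± 0.025. Reck, a membrane-anchored inhibitor of MMPs, was at 1.62 ± 0.308 CPM in OE_CM against 1.63 ± 0.499 CPM in VEC_CM (adjusted p = 0.982).

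Among 11 tested genes of activators, cell surface partners and clearance 6 rose and 1 fell in OE_CM. Furin, the protease that removes the propeptides of MMP-14 and ADAMTS precursors, was at 213 ± 5.42 CPM in OE_CM against 115 ± 3.73 CPM in VEC_CM, a 1.85-fold rise. Lrp1, the endocytic receptor that clears MMPs, TIMPs and aggrecanases, rose 1.85-fold to 1839 ± 21.9 CPM in OE_CM, against 994 ± 6.69 CPM in VEC_CM. Cd44, a hyaluronan receptor that docks MMP-14, rose 2.08-fold, and Cav1 fell by 0.24 ± 0.023 on the log2 scale. Of 6 tested proteoglycan and link protein genes 3 rose and 2 fell. Vcan, the gene of versican, which all 3 ADAMTS members cut, was at 295 ± 8.39 CPM in OE_CM against 263 ± 18.3 CPM in VEC_CM (log2 0.16 ± 0.034), a call lost with limma on FPKM (adjusted p = 0.0951 to 0.0967). Bgn and Hapln4 rose 1.4-fold and 1.18-fold, and Fmod and the perlecan gene Hspg2 fell by 0.68 ± 0.18 and 0.23 ± 0.024. The aggrecan gene Acan had a mean of at most 0.0274 CPM in any group and was not tested. Of 12 AP-1 and ETS factor genes 4 rose and 5 fell; Junb rose 2.61-fold, Ets2 1.77-fold, Etv4 1.28-fold and Fosl1 1.26-fold, while Etv1, Jund and Jun fell by 1.34 ± 0.061, 0.49 ± 0.046 and 0.37 ± 0.071.

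In TGF_KD_CM against TGF_VEC_CM, where 23% of all genes tested passed higher and 20.2% lower, 3 of the 6 further MMP genes rose and none fell. Mmp23 rose 1.61-fold, and Mmp28 and Mmp11 1.17-fold and 1.12-fold. The call of Mmp28 was lost with limma on FPKM, without TGF_KD_CM replicate 1 or 2 or without TGF_VEC_CM replicate 3 (adjusted p = 0.0504 to 0.175), and that of Mmp11 was lost without TGF_KD_CM replicate 2 or without TGF_VEC_CM replicate 3 (adjusted p = 0.0512 to 0.052). Mmp9 and Mmp13 did not pass (adjusted p = 0.259 and 0.639). Of the 7 ADAMTS genes 1 rose and 2 fell, Adamts7 by 1.39-fold upwards and Adamts12 and Adamts14 by 0.37 ± 0.054 and 0.28 ± 0.076 on the log2 scale downwards. Of the 5 ADAMTS-like genes 1 rose and 2 fell, among them Adamtsl4, which fell by 0.71 ± 0.05, and Adamtsl3, which fell by 1.01 ± 0.38, a call lost without TGF_KD_CM replicate 1 or 2 or without TGF_VEC_CM replicate 1 (adjusted p = 0.0583 to 0.127). The rise of Adamtsl5, 1.07-fold, was lost with upper-quartile factors, with limma on FPKM, without TGF_KD_CM replicate 1 or 2 or 3 or without TGF_VEC_CM replicate 1 or 2 or 3 (adjusted p = 0.0532 to 0.125), and with limma on FPKM 0 of this list rose and 1 fell. Of the sheddase genes 1 rose and 2 fell, with Adam8 and Adam15 lower by 0.53 ± 0.059 and 0.28 ± 0.043 and Adam10 1.13-fold higher. With upper-quartile factors 1 rose and 4 fell. On the list of other inhibitors only Pcolce, which is not an inhibitor, passed and rose 1.3-fold, and Reck did not pass (adjusted p = 0.762).

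Of the activators, partners and clearance genes 4 rose and 6 fell in TGF_KD_CM. Cd44 fell by 0.33 ± 0.028, Lrp1 by 0.24 ± 0.022 and Sdc4 by 0.18 ± 0.03 on the log2 scale, while Cd63, a cell surface partner of TIMP-1, and Cav1 rose 1.31-fold and 1.29-fold. Furin was at 159 ± 4.53 CPM in TGF_KD_CM against 167 ± 6.16 CPM in TGF_VEC_CM (adjusted p = 0.0448), a call lost with no filter, without TGF_KD_CM replicate 2 or without TGF_VEC_CM replicate 1 (adjusted p = 0.122 to 0.16). The 1.09-fold rise of Pcsk7, another proprotein convertase, was lost with DESeq2, with DESeq2 size factors, with upper-quartile factors, with limma on FPKM, with a filter of 1 CPM in 3 libraries, with the compared groups fitted alone, without TGF_KD_CM replicate 2 or 3 or without TGF_VEC_CM replicate 1 or 2 (adjusted p = 0.0576 to 0.349). Of the proteoglycan and link protein genes 2 rose and 3 fell. Vcan rose 1.48-fold, to 223 ± 3.6 CPM in TGF_KD_CM against 151 ± 3.49 CPM in TGF_VEC_CM, Bgn rose 1.11-fold, and Hspg2 and Hapln4 fell by 0.34 ± 0.024 and 0.19 ± 0.061. Fmod fell by 0.47 ± 0.18, a call lost with limma on FPKM, without TGF_KD_CM replicate 3 or without TGF_VEC_CM replicate 2 or 3 (adjusted p = 0.0681 to 0.273). Of the 12 AP-1 and ETS genes 2 rose and 8 fell. Etv5 fell by 1.83 ± 0.066, Fos by 1.35 ± 0.39 and Fosb by 1.18 ± 0.32. Fos and Fosb were low, at means of 0.468 and 0.911 CPM in TGF_KD_CM and 1.2 and 2.07 CPM in TGF_VEC_CM. Fosl1 fell by 0.29 ± 0.041 and Junb by 0.26 ± 0.051, and Ets2 and Fosl2 rose 1.33-fold and 1.28-fold.

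In TGF_VEC_CM against VEC_CM, where 28.9% of all genes tested passed higher and 29.4% lower, 1 of the 6 further MMP genes rose and 3 fell. Mmp11 was 1.21-fold higher, and Mmp23 and Mmp28 were lower by 0.86 ± 0.071 and 0.28 ± 0.074 on the log2 scale. Mmp13 was at 0.164 ± 0.0711 CPM in TGF_VEC_CM against 0.601 ± 0.0978 CPM in VEC_CM and fell (adjusted p = 0.00186), and Mmp9 did not pass (adjusted p = 0.1). Of the 7 ADAMTS genes 6 rose and none fell, among them Adamts16, Adamts6 and Adamts12, which were 4.46-fold, 2.51-fold and 2.02-fold higher. Adamts16 was low, at a mean of 1.63 CPM in TGF_VEC_CM against 0.364 CPM in VEC_CM. All 5 tested genes of ADAMTS-like proteins, papilin included, rose; the 3 with the largest change, Adamtsl3, Papln and Adamtsl2, averaged 1.13, 0.592 and 0.821 CPM in TGF_VEC_CM, against 0.118, 0.182 and 0.264 CPM in VEC_CM. With a filter of 1 CPM in 3 libraries 3 of the list rose, and with limma on log2(FPKM + 1) or log2(FPKM + 0.1), filtered at 1 FPKM in 3 libraries, 2 did. Reck rose 1.73-fold, to 2.82 ± 0.789 CPM in TGF_VEC_CM against 1.63 ± 0.499 CPM in VEC_CM, a call lost without TGF_VEC_CM replicate 3 (adjusted p = 0.0678). Spock2, from the same list, was low, at a mean of 0.504 CPM in TGF_VEC_CM against 0.173 CPM in VEC_CM. It rose 2.87-fold, a call lost without VEC_CM replicate 1 (adjusted p = 0.0582), and Pcolce fell by 0.41 ± 0.025. With limma on FPKM 0 genes of the list of other inhibitors rose and 1 fell. Of the sheddase genes 3 rose and 2 fell, with Adam8, Adam19 and Adam15 2.17-fold, 1.78-fold and 1.56-fold higher and Adam10 and Adam9 lower by 0.31 ± 0.03 and 0.14 ± 0.03. Of the activators, partners and clearance genes 6 rose and 4 fell. Lrp1, Cd44 and Furin rose 1.6-fold, 1.54-fold and 1.46-fold, and Cav1 and Cd63 fell by 0.61 ± 0.023 and 0.26 ± 0.025. The fall of Thbs1, 0.79 ± 0.30 on the log2 scale, was lost with DESeq2 size factors, with upper-quartile factors, with no filter, without TGF_VEC_CM replicate 1 or 2 or 3 or without VEC_CM replicate 1 or 2 or 3 (adjusted p = 0.0506 to 0.116). Vcan fell by 0.81 ± 0.035, to 151 ± 3.49 CPM in TGF_VEC_CM against 263 ± 18.3 CPM in VEC_CM, and of the 6 proteoglycan and link protein genes 2 rose and 2 fell. Hapln4 and Hspg2 rose 1.38-fold and 1.21-fold, and the fall of Bgn, 0.094 ± 0.024, was lost with limma on FPKM or without VEC_CM replicate 3 (adjusted p = 0.051 to 0.142). Of the AP-1 and ETS genes 7 rose and 2 fell, with Fosb, Fos and Junb 5.51-fold, 5.2-fold and 1.85-fold higher, Fosl1 not passing (adjusted p = 0.817) and Etv1 and Etv5 lower by 1.03 ± 0.059 and 0.39 ± 0.056. Fosb and Fos were low, at means of 0.373 and 0.228 CPM in VEC_CM and 2.07 and 1.2 CPM in TGF_VEC_CM.

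**Figure D4:**
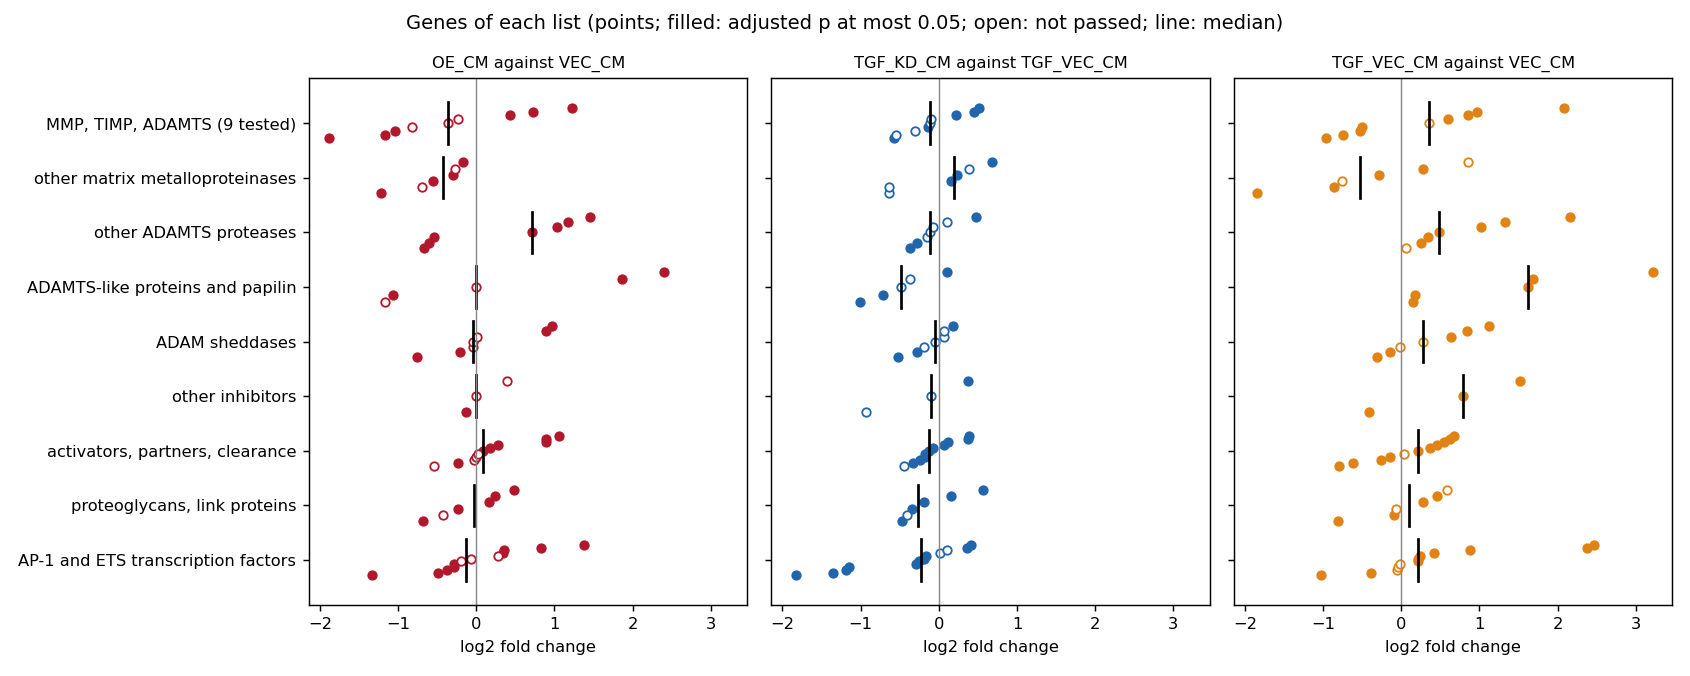
The log2 fold change of every tested gene in 9 lists (rows, from the members to AP-1 and ETS factors) in the 3 comparisons (panels, one shared axis); filled points passed at an adjusted p of 0.05, open points did not, and vertical lines are list medians. The further MMP genes that passed lie below 0 in OE_CM against VEC_CM and above 0 in TGF_KD_CM against TGF_VEC_CM, and the further ADAMTS genes that passed all lie above 0 in TGF_VEC_CM against VEC_CM.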

How the data were processed

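The deposited table of counts holds whole-number reads per gene symbol for 12 libraries, and the deposited FPKM table holds the same counts divided by the library total and 1 length per gene (recomputed for 24619 genes, within 0.01%). The submitters' processing notes name GRCm38 (mm10) as the build; aligner, counter, strand setting and gene models were not given in the sources used here. Counts were filtered with filterByExpr, scaled by TMM and fitted together for the 12 libraries, 1 coefficient per group, by robust quasi-likelihood (edgeR 4.0.16, R 4.3.3). The edgeR step was also run on simulated counts with known fold changes. These were drawn with the same dispersion for every gene, so that run is no check on the spread of the present data. CPM carries TMM scaling and FPKM does not. A floor of 3 reads covers counting error only. Loci come from RefSeq (GRCm38.p6) and overlaps from the GENCODE annotation of that build. Alternatives were DESeq2 1.42.0, other scalings and filters, limma 3.58.1 on FPKM, the compared groups alone, and leaving out each library. Named genes are all members and, per list and comparison, up to 3 called genes of largest change in each direction, with a few genes always named. The members and lists were chosen with earlier results of these data known. A gene that overlaps a member is not reported here.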

Additional observations from a re-analysis of the deposited data

How the results depend on the processing

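Of the recomputed member values, 534 kept their direction and their side of the threshold, 24 lost the call, 3 gained one and none reversed; those that changed belong to Mmp19, Timp3, Adamts1 and the small Mmp14 difference given above. A call rule that adds a change of at least 2-fold left 0 members in TGF_KD_CM against TGF_VEC_CM, where the largest of the 5 called changes was 0.58 ± 0.10 on the log2 scale, 1 in TGF_VEC_CM against VEC_CM, and 0 members that passed in opposite directions in both comparisons of media. Under that rule 1059, 580 and 1329 of all genes were called in OE_CM against VEC_CM, TGF_KD_CM against TGF_VEC_CM and TGF_VEC_CM against VEC_CM. Limma on log2(FPKM + 1), filtered at 1 FPKM in 3 libraries, left Mmp2, Timp3 and Adamts1 untested and split the called genes of OE_CM against VEC_CM into 2686 higher and 4068 lower. Deviations of same-numbered libraries were weakly correlated at most, from -0.037 to 0.044, beside -0.039 to 0.037 between different numbers. Even so, 10 of 12 libraries correlated best with a library of their own number, and a shared deviation by number was not tested. A fit with the replicate number as a block called 6 members in OE_CM against VEC_CM and 5 in TGF_KD_CM against TGF_VEC_CM. It called 8 in TGF_VEC_CM against VEC_CM and 6 for the difference, each as without the block. Of the recomputed counts for the other lists, both directions summed, 348 were within 1.5 times and 12 were not. Depth limits Mmp2, Mmp3 and Timp3, which had under 100 reads in every library.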

Other observations

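For each member that passed with a change of at least 2-fold in a comparison, the 3 genes with the most similar course over the 12 libraries were looked up among 11986 genes with a mean of at least 1 CPM. Likeness was the root mean square difference of log2 CPM after centring each gene on its own mean, so smaller values are closer. Closeness is a description with no test. Nearest to Timp1 were Tnnt2 (0.0521), Ripk2 (0.0772) and Runx1 (0.0783). On the same scale the members deviated from their own means by 0.440 for Timp1, 0.418 for Timp2, 0.429 for Mmp19, 0.786 for Adamts4 and 0.700 for Adamts5. Tnnt2 is the cardiac troponin T gene, and Runx1 encodes a transcription factor. Nearest to Timp2 were Efemp1 (0.0582), Fah (0.0673) and Aldh6a1 (0.0687), of which Efemp1 encodes the matrix protein fibulin-3. Nearest to Mmp19 were Igfbp6 (0.0855), Ksr1 (0.086) and Aqp5 (0.101). Nearest to Adamts4 were Dpep1 (0.153), G930009F23Rik (0.204) and Enpp3 (0.208), and nearest to Adamts5 were Cytip (0.152), Lbh (0.152) and Dchs2 (0.157).

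Versican and Mmp14 were both highest in OE_CM and lowest in TGF_VEC_CM, which was noticed after their values were seen. Vcan averaged 295 CPM in OE_CM, 223 CPM in TGF_KD_CM, 151 CPM in TGF_VEC_CM and 263 CPM in VEC_CM, and Mmp14 487, 365, 256 and 362 CPM in the same groups. Syn1, which surrounds Timp1 and shares none of its exon bases, was at 1.48 CPM in OE_CM against 0.382 CPM in VEC_CM (edgeR adjusted p = 2.6e-06).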
